A study of Mus musculus with 18 samples.

Results

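Interferon-stimulated genes are the genes that a cell switches on when an interferon binds its receptor. A set of 39 such genes was followed in quadriceps of dyW mice, which lack laminin alpha 2 and model a congenital muscular dystrophy, and of wild type (WT) mice. The genes were taken by name, all 39 were found among the 48709 genes listed for each library, and all 39 passed the filter on low counts in every comparison. They comprise 31 genes of the type I response, 7 guanosine triphosphatases (GTPases) known for induction by interferon gamma, and Tap1. The WT mice carry the strain label C57BL/6J and the dyW mice the label B6.129S1(Cg)-Lama2tm1Eeng/J, a knockout of the laminin alpha 2 gene. An untreated cohort held WT (n = 3) and dyW (n = 4) mice with an age label of 5 weeks. A treatment cohort held WT PBS (n = 3), dyW PBS (n = 3), WT TD139 (n = 2) and dyW TD139 (n = 3) mice with an age label of 3 weeks, although the protocol gives 5 weeks as the age at dissection for all mice. TD139 is an inhibitor of galectin-3. The injected substance was read from the library names, and its dose, its route and the length of the treatment are not given in the sources used here. Each library came from an animal with a number of its own, and each group held both sexes.

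Type I interferons (the alpha family and beta) act on a receptor that nearly all cells carry, and the kinases behind it activate transcription factors, STAT2 and IRF9 among them, that bind the interferon-stimulated response element in DNA. Interferon gamma, made mainly by natural killer (NK) cells and T cells, acts through another receptor, and its signal ends at another DNA element, the gamma-activated site. The type I targets followed here include proteins of the response to foreign RNA (the Ifit and Oas families) and the ubiquitin-like modifier Isg15. They also include the transcription factor Irf7, which amplifies interferon production, and the RNA sensors Ddx58 (RIG-I), Ifih1 (MDA5) and Dhx58 (LGP2). The GTPases are guanylate-binding proteins (Gbp2, Gbp3, Gbp7) and immunity-related GTPases (Iigp1, Igtp, Irgm1, Irgm2), which act on membranes that enclose microbes inside cells. Tap1 carries peptides into the endoplasmic reticulum for loading on class I histocompatibility molecules.

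Of the 30 promoters found for these genes 6 carry the letters of both elements and 9 of neither, and 4 are shown as examples. They hold a response element in a type I gene (Isg15) and both elements in the GTPase that differed most (Gbp7). They also hold 1 response element in a GTPase that went the other way in untreated mice (Gbp2). Irf7, a gene that differed between genotypes in both cohorts, has neither. The gamma-activated site alone, found in Ifi35 and Ifit2, is not among the examples. The windows are RefSeq promoter sequence on GRCm38.p6, the 250 bases before the annotated start, read 5′ to 3′ on the gene's strand. They cover chr4:156200819-156201068 (minus strand) for Isg15, chr3:142530086-142530335 (plus strand) for Gbp7, chr3:142620413-142620662 (plus strand) for Gbp2 and chr7:141266425-141266674 (minus strand) for Irf7. Capitals mark matches to GAAA-NN-GAAA or to TTCNNNGAA on either strand; overlapping matches run together in Isg15.
Isg15: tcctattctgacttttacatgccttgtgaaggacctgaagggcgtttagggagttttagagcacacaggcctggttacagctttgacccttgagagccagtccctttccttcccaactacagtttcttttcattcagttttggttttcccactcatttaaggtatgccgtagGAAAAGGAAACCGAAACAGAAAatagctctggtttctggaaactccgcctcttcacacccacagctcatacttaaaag
Gbp7: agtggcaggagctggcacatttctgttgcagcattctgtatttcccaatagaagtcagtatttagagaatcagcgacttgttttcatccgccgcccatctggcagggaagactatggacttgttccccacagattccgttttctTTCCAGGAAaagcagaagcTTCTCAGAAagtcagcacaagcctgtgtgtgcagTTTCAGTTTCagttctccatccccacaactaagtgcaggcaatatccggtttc
Gbp2: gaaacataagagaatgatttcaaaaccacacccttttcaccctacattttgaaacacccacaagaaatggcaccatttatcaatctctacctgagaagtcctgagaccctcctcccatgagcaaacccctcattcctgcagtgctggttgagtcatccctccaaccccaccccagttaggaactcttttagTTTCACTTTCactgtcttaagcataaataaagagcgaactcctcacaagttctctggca
Irf7: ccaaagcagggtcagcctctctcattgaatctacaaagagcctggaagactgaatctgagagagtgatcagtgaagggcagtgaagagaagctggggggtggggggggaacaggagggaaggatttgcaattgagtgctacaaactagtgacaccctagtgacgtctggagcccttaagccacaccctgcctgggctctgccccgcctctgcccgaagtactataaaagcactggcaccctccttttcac

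Promoter windows were found for 30 of the 39 genes, and those of Zbp1, Dhx58, Usp18, Ifi27l2a, Ifi27, Rtp4, Oas2, Parp14 and Iigp1 were not analysed here. In windows of 300 bases (250 before to 50 after the start), GAAA-NN-GAAA stood in 19 of the 30 genes (63.33%), against 3.993% of 27025 genes. It stood in 13 of 23 type I response genes and in 6 of 6 GTPases. TTCNNNGAA stood in 8 of the 30 (26.67%), against 9.554% of all genes, and in 3 of the 6 GTPases (Gbp7, Igtp and Irgm2). The promoter of Tap1 held neither. A match describes letters in this window and not a bound site.

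The libraries held 15.8 to 45.2 M (mega) exon reads each, and the 39 genes together drew 7108 to 26112 reads per library. The genotype labels were checked on Lama2, the targeted gene, at a log2 fold change of −3.29 (SE 0.19, edgeR adjusted p = 6.7e-05) in untreated dyW against WT mice and −2.67 (adjusted p = 0.000912) in the PBS groups. Lgals3, which encodes galectin-3, the target of TD139, differed by 4.30 and 2.65 on the same scale. The libraries held muscle, with the summed level of 10 skeletal muscle genes at 33657 to 115782 scaled RPKM. Scaled RPKM here means exon reads per kilobase of exon and per M reads of the library size after TMM normalization. Each library stands for 1 mouse, and in whole muscle fewer cells of a type and less RNA per cell cannot be told apart. Igtp and Irgm2 overlap on the same strand, Irf9 shares a stretch with Rnf31, and Irf7 and Tap1 overlap genes on the opposite strand (Phrf1 and Psmb9); whether the counting used strand is not given in the sources used here. Uniquely placed reads made up 71.5% of the reads of Ifit3, 73.0% of Ifit3b and 71.4% of Oas1a, so the values of these near-copies are less certain.

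A pair of libraries stood apart from their groups. The first, dyW PBS replicate 1, had the lowest depth (15.8 M reads) and was the highest of the 3 dyW PBS libraries in 30 of 31 type I response genes and 7 of 7 GTPases. Its summed level of 13 macrophage genes was 374 scaled RPKM, against 223 and 160 in the other dyW PBS libraries. The second, untreated dyW replicate 1, was the lowest of its 4 libraries in 26 of 31 type I response genes, at 497 scaled RPKM of the macrophage genes against 482 to 591 in the other 3. For the set, edgeR calls and type I medians of genotype and treatment effects that include either library are given with and without it. For the difference between cohorts, the count of calls and type I median without untreated dyW replicate 1 are given only within ranges. Counts by other methods and counts of groups without overlap are given with all libraries only. The same holds for counts and medians of the other gene lists, except the macrophage genes in the PBS groups.

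**Figure D1:**
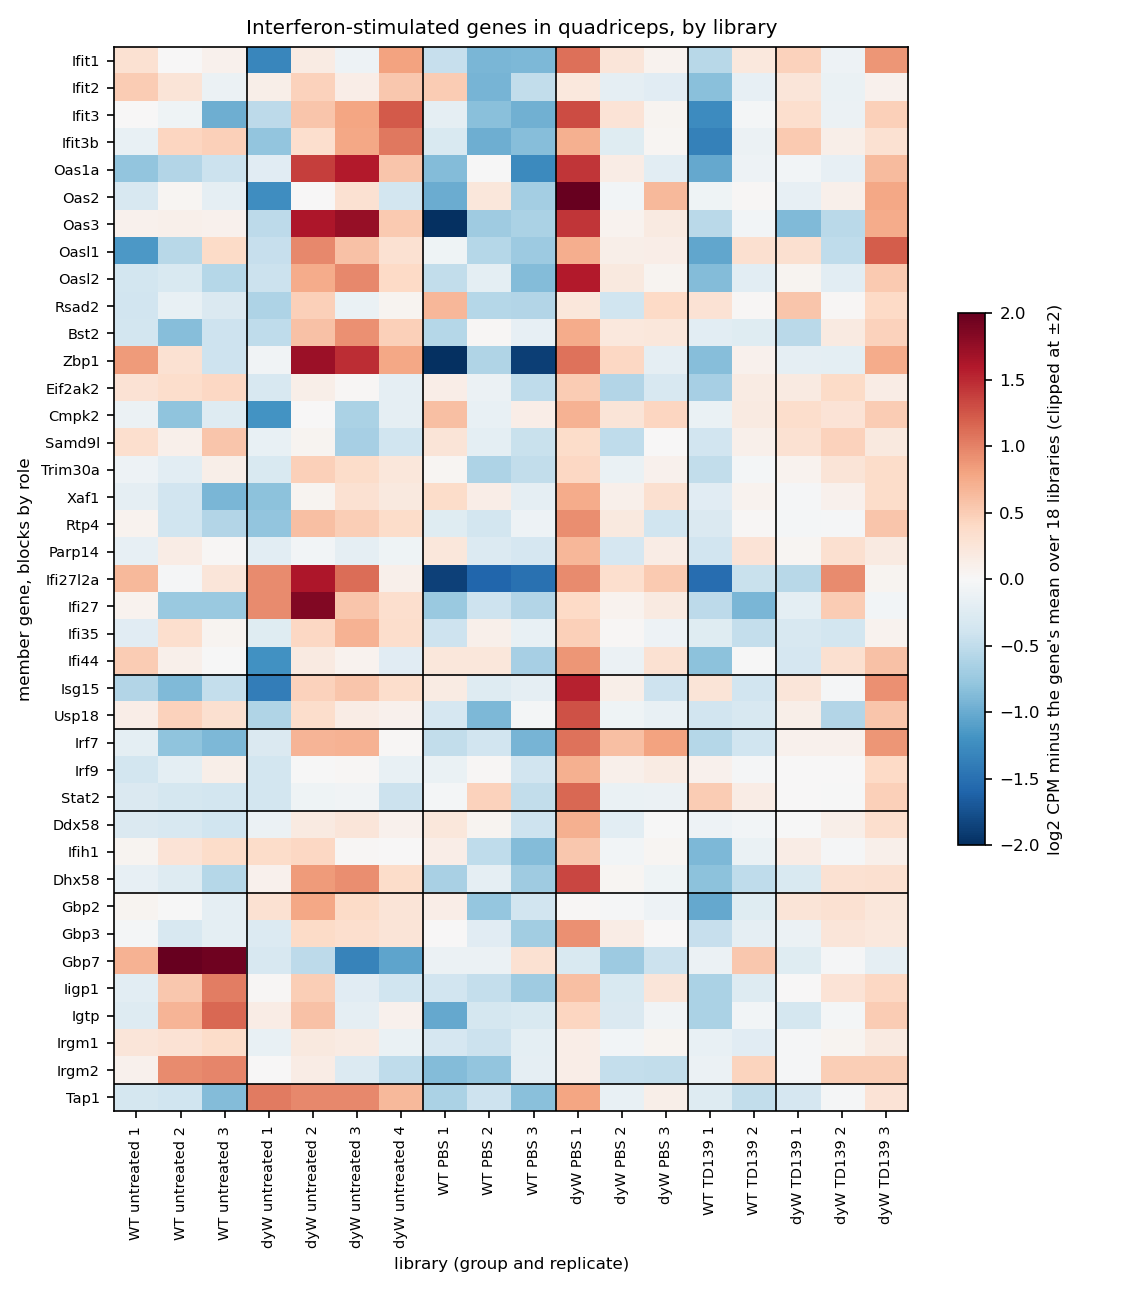
Log2 CPM of each of the 39 genes in each of the 18 libraries, as the difference from that gene's mean over all libraries (colour scale clipped at 2 in either direction); black lines separate roles and groups. The column of dyW PBS replicate 1 is high across the type I genes, that of untreated dyW replicate 1 is low across them, and Gbp7 is high in the 3 untreated WT libraries.

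Group means were ordered over the 6 groups for each gene. Among the 31 type I genes the highest group mean was that of dyW PBS for 15 genes, untreated dyW for 10, untreated WT for 3 and dyW TD139 for 3. Without dyW PBS replicate 1 those numbers were 3 for dyW PBS, 13 for untreated dyW, 4 for untreated WT, 10 for dyW TD139 and 1 for WT TD139, so the lead of dyW PBS rested on that library. Without untreated dyW replicate 1 they were 13 for dyW PBS and 14 for untreated dyW. Among the 7 GTPases the highest mean was that of untreated WT for 5 genes, also without either library or both. The lowest mean was that of WT PBS for 12 of the type I genes and 4 of the GTPases. As the median deviation of a class from the mean of 18 libraries, the type I genes lay at −0.18 to −0.15 on the log2 scale in untreated WT mice and at −0.37 to 0.46 in untreated dyW mice. The GTPases lay at 0.05 to 0.97 in untreated WT mice, at −0.18 to 0.38 in untreated dyW mice and at −0.43 to −0.31 in WT PBS mice. Replicate 1 of untreated WT, the only female of its group, had the lowest GTPase median of the 3.

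**Figure D2:**
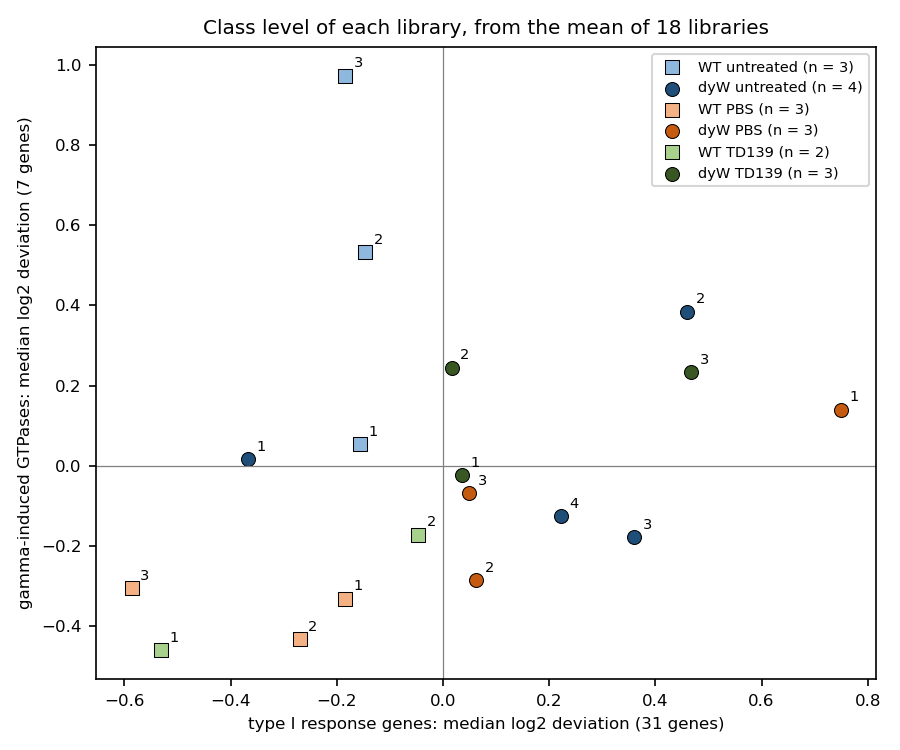
Median log2 deviation from the mean of 18 libraries of the 31 type I response genes (x axis) and the 7 gamma-induced GTPases (y axis), with 1 point per library numbered by replicate and coloured by group. Untreated WT replicates 2 and 3 are the highest in the GTPases (0.53 and 0.97) with type I levels near −0.15, and dyW PBS replicate 1 is the highest in the type I genes (0.75).

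The most abundant of the 39 genes per length of transcript were Ifi27l2a (30.2 scaled RPKM over 18 libraries) and Ifi27 (29.3), small membrane proteins of mitochondria and the nuclear envelope, followed by Bst2 (14.4), which tethers budding viruses to the cell. Among the GTPases Irgm2 (7.45), Igtp (6.24) and Gbp7 (3.34) led. The lowest was Oas3, with 1 to 91 reads per library, and Zbp1, a sensor of Z-form nucleic acid, had 2 to 154, so fold changes of both rest on few reads.

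The first comparison asks how the genes differ between untreated dyW and WT muscle. Of the 39 genes 9 rose and 4 fell in dyW at an edgeR adjusted p under 0.05. Over all 14846 genes tested, 24.7% were called higher and 25.1% lower (49.8% in either direction), so a share of 9 of 39 higher lies near the background and a share of 4 of 39 lower lies below it. The type I genes had 7 higher and 2 lower of 31, with a median log2 fold change of 0.29, and the GTPases had 1 higher and 2 lower of 7, with a median of −0.43. The median over all genes was 0.03. With limma on log2(RPKM + 0.1), which put the median of all genes at 0.51, the medians were 0.80 and 0.20, so the sign of the GTPase median changed while it stayed below that of all genes. The share of higher genes among all calls was 49.6% with edgeR and 85.5% with that limma fit.

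Tap1 had the smallest p. Its levels were 0.917, 0.881 and 0.632 scaled RPKM in the untreated WT libraries and 2.40, 2.27, 2.27 and 1.84 in the untreated dyW libraries. All 4 dyW libraries lay above all 3 WT libraries, at a log2 fold change of 1.45 (SE 0.18, adjusted p = 0.000413). The type I genes that rose were Oas1a at 1.65 (SE 0.45, adjusted p = 0.0151), Ifi27 at 1.49 (SE 0.39, adjusted p = 0.0129), Bst2 at 1.00 (SE 0.31, adjusted p = 0.0253), Irf7 at 0.96 (SE 0.30, adjusted p = 0.0262), Oasl2 at 0.94 and the RNA sensors Dhx58 at 0.96 (SE 0.27, adjusted p = 0.0186) and Ddx58 at 0.46 (SE 0.13, adjusted p = 0.0193). The third sensor, Ifih1, had a value of −0.01. The type I genes that fell were Eif2ak2 at −0.42, which encodes the RNA-activated kinase PKR and lay at 0.11 and 0.08 in the limma fits, and Samd9l at −0.59. Each of these type I calls was lost in at least 1 fit that left out a single library. Of the 7 such fits, the call was lost in 6 for Eif2ak2, 5 for Oasl2, 4 each for Bst2, Irf7 and Samd9l, 2 each for Ifi27 and Ddx58 and 1 each for Oas1a and Dhx58. Leaving out untreated dyW replicate 1 ended the call of Eif2ak2 (adjusted p = 0.0822) and none of the others.

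Ifi27 lay at 27.0, 15.4 and 15.3 scaled RPKM in untreated WT libraries and at 49.4, 93.2, 37.9 and 32.5 in untreated dyW libraries. The groups did not overlap, and the spread within dyW was wide. Bst2 was measured at 10.5, 7.54 and 10.2 in WT and at 9.51, 20.4, 25.7 and 19 in dyW. Here replicate 1 of dyW lay within the WT range and the other 3 above it. Ifi27l2a was not called at a fold change of 0.74 (adjusted p = 0.0845), with 38.4, 23.9 and 28.7 in WT against 46.8, 74.7, 53.2 and 26.2 in dyW. Ifi35, at 5.83, 8.61 and 7.09 against 5.78, 9.08, 11.1 and 8.69, was not called either (0.29, adjusted p = 0.317). Isg15 (0.85, adjusted p = 0.144) and Ifit3 (0.95, adjusted p = 0.079) also missed the threshold: Isg15 lay at 1.87, 1.5 and 2.03 in WT and at 1.04, 3.95, 4.20 and 3.64 in dyW, where replicate 1 was below all WT libraries and the rest above them. Without that library both were called, Isg15 at 1.16 (adjusted p = 0.0034) and Ifit3 at 1.22 (adjusted p = 0.00935), while Ifi27l2a was not (0.80, adjusted p = 0.0972).

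The GTPases went in both directions. Gbp7 lay at 4.37, 10.9 and 10.4 scaled RPKM in untreated WT libraries and at 2.16, 1.88, 1.07 and 1.29 in untreated dyW libraries, so that all dyW libraries were below all WT libraries. Its log2 fold change was −2.41 (SE 0.35, adjusted p = 0.000826). Irgm2, at 7.45, 13.5 and 13.7 in WT and 7.06, 7.71, 5.75 and 4.93 in dyW, fell by 0.84 (SE 0.23, adjusted p = 0.0167) on the log2 scale, with WT replicate 1 inside the dyW range. Without untreated WT replicate 2 or 3 its adjusted p was 0.065 and 0.0675. Gbp2 rose by 0.50 (SE 0.16, adjusted p = 0.0294), from 3.19, 3.06 and 2.73 in WT to 3.79, 5.26, 4.04 and 3.70 in dyW, without overlap, and the call was lost without any 1 of the 3 WT libraries (adjusted p of 0.0527 to 0.106). Igtp was not called at −0.43 (adjusted p = 0.264), with 4.88, 9.35 and 13.0 in WT and 6.50, 8.77, 5.17 and 6.19 in dyW. The remaining GTPases, Gbp3 at 0.39, Iigp1 at −0.51 and Irgm1 at −0.26, were not called.

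Counts in the untreated cohort turned on single libraries. Without untreated dyW replicate 1, 17 genes were higher and 3 lower (background 26.9% and 25.5%), and the type I genes had 14 higher and 1 lower with a median of 0.52. Without untreated WT replicate 1, 2 or 3, the genes higher numbered 5, 3 and 2 (21.2%, 18.7% and 18.5% of all genes) and the genes lower 4, 2 and 1 (22.9%, 19.5% and 19.8%). Without untreated dyW replicate 3 or 4 the genes lower numbered 2 in each case (20.0% and 21.5% of all genes). The GTPase median was −0.74 without WT replicate 1 and −0.19 without WT replicate 3. Gbp7 and Tap1 were called in all 15 alternatives tried, at −2.73 to −1.38 and 1.11 to 1.85. Groups without overlap were found for 6 higher genes (25.9% of all genes) and 4 lower genes (28% of all genes). In the authors' deposited table of dyW against WT, 8 of the 39 genes were higher and 3 lower at an adjusted p under 0.05, with Gbp7 at −2.43 and Tap1 at 1.43. Macrophage genes were 482 to 591 scaled RPKM in untreated dyW and 98.6 to 163 in untreated WT, with 12 of 13 called higher and none at 0; their part in the differences was not tested.

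**Figure D3:**
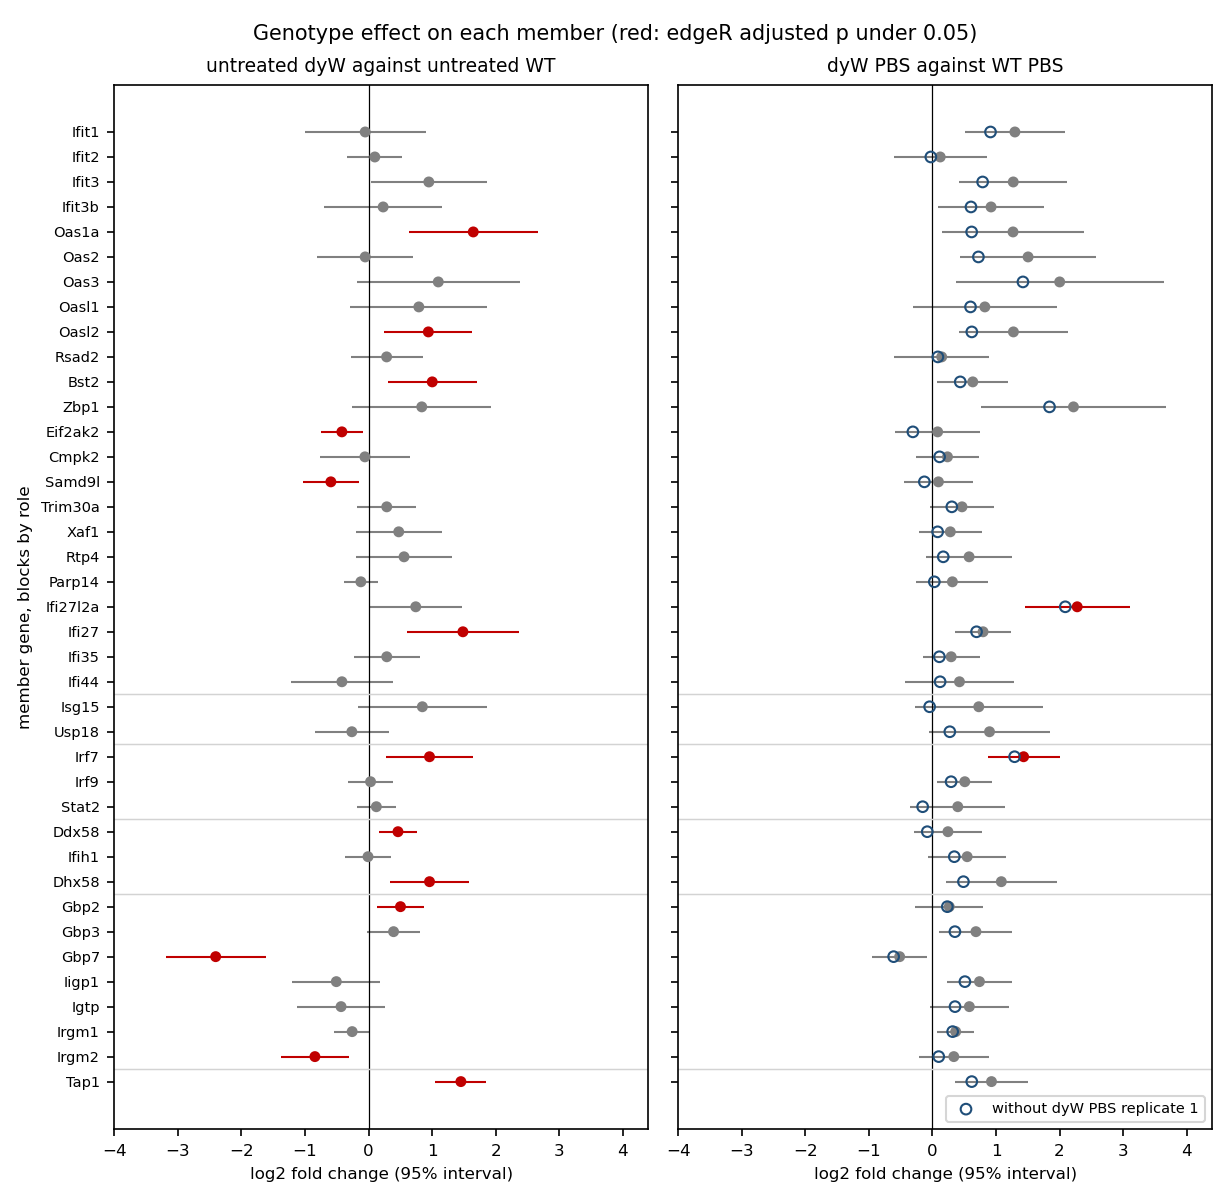
Log2 fold change of dyW over WT with its 95% interval for each of the 39 genes in the untreated cohort (left) and the PBS groups (right); red marks an edgeR adjusted p under 0.05 and open circles the values without dyW PBS replicate 1. Values lie on both sides of 0 in the left panel with Gbp7 lowest at −2.41, and 38 of 39 lie above 0 in the right panel, with Ifi27l2a at 2.28 and Irf7 at 1.43 called.

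The next comparison asks the same of the vehicle groups. Of the 39 genes 2 rose and 0 fell in dyW PBS against WT PBS mice, with 2.4% of 15331 genes called higher and 0.28% lower. The 2 genes were Ifi27l2a and Irf7. At an edgeR unadjusted p under 0.05, 18 were higher and 1 lower, against 10.2% and 4.89% of all genes. Without dyW PBS replicate 1 these counts were 7 and 1, against 1144 and 460 of 15149 genes. DESeq2 called 9 higher with all libraries, against 4.47% of all genes. The fitted value was above 0 for 38 of 39 genes, for 31 of 31 type I genes (median 0.63) and for 6 of 7 GTPases (median 0.37), against a median of −0.03 over all genes. The libraries of 17 genes lay without overlap above those of WT PBS (11% of all genes), and those of 1 gene, Gbp7, without overlap below them (6.56%).

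Ifi27l2a lay at 6.59, 8.0 and 8.61 scaled RPKM in WT PBS libraries and at 46.7, 30.9 and 35.0 in dyW PBS libraries. The lowest dyW PBS library was above the highest WT PBS library by a wide margin, and the log2 fold change was 2.28 (SE 0.38, adjusted p = 0.0102). Its WT PBS levels were below all 3 untreated WT libraries. Irf7 lay at 1.35, 1.46 and 0.990 in WT PBS and at 4.09, 2.89 and 3.34 in dyW PBS, at 1.43 (SE 0.26, adjusted p = 0.0150), again without overlap.

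The genes next in order missed the threshold: Ifi27 at 0.80 (SE 0.20, adjusted p = 0.0604), Ifit1 at 1.30 (SE 0.36, adjusted p = 0.0871) and Tap1 at 0.93 (SE 0.26, adjusted p = 0.0934). Ifi27, at 15.3, 19.3 and 17.1 in WT PBS and 34.0, 26.9 and 29.0 in dyW PBS, did not overlap between the groups. Bst2, at 9.09, 13.9 and 12.2 against 22.9, 15.8 and 15.9, did not overlap either (0.63, adjusted p = 0.264), while Ifi35, at 5.11, 7.36 and 6.13 against 9.48, 6.97 and 6.39, did (0.29, adjusted p = 0.548).

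Among the GTPases none was called. Gbp7 was at 2.49, 2.5 and 3.33 in WT PBS and 2.19, 1.64 and 2.00 in dyW PBS, at −0.52 (SE 0.20, adjusted p = 0.238). Irgm2 was at 3.83, 4.02 and 6.16 in WT PBS and 7.69, 5.03 and 4.95 in dyW PBS (0.34, adjusted p = 0.581). Igtp was at 2.85, 4.59 and 4.73 against 7.86, 4.80 and 5.58 (0.58, adjusted p = 0.367), without overlap and with the nearest libraries at 4.73 and 4.80.

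Leaving out dyW PBS replicate 1 left 1 gene called, Ifi27l2a, at 2.09 (adjusted p = 0.0489), with 0.812% of all genes called higher. Irf7 was then at 1.29 (adjusted p = 0.0700), and it was also lost without WT PBS replicate 3. The type I median fell from 0.63 to 0.30 with 25 of 31 values above 0, and the GTPase median was 0.32 with 6 of 7 above 0. Isg15 shows the weight of that library: it read 8.37 scaled RPKM there, 3.09 and 2.11 in the other dyW PBS libraries and 3.19, 2.38 and 2.5 in WT PBS libraries. Macrophage genes moved with this comparison too, at 160 to 374 scaled RPKM in dyW PBS and 58.3 to 82.9 in WT PBS, with 11 of 13 called higher and 7 of 13 without replicate 1; their part was not tested.

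**Figure D4:**
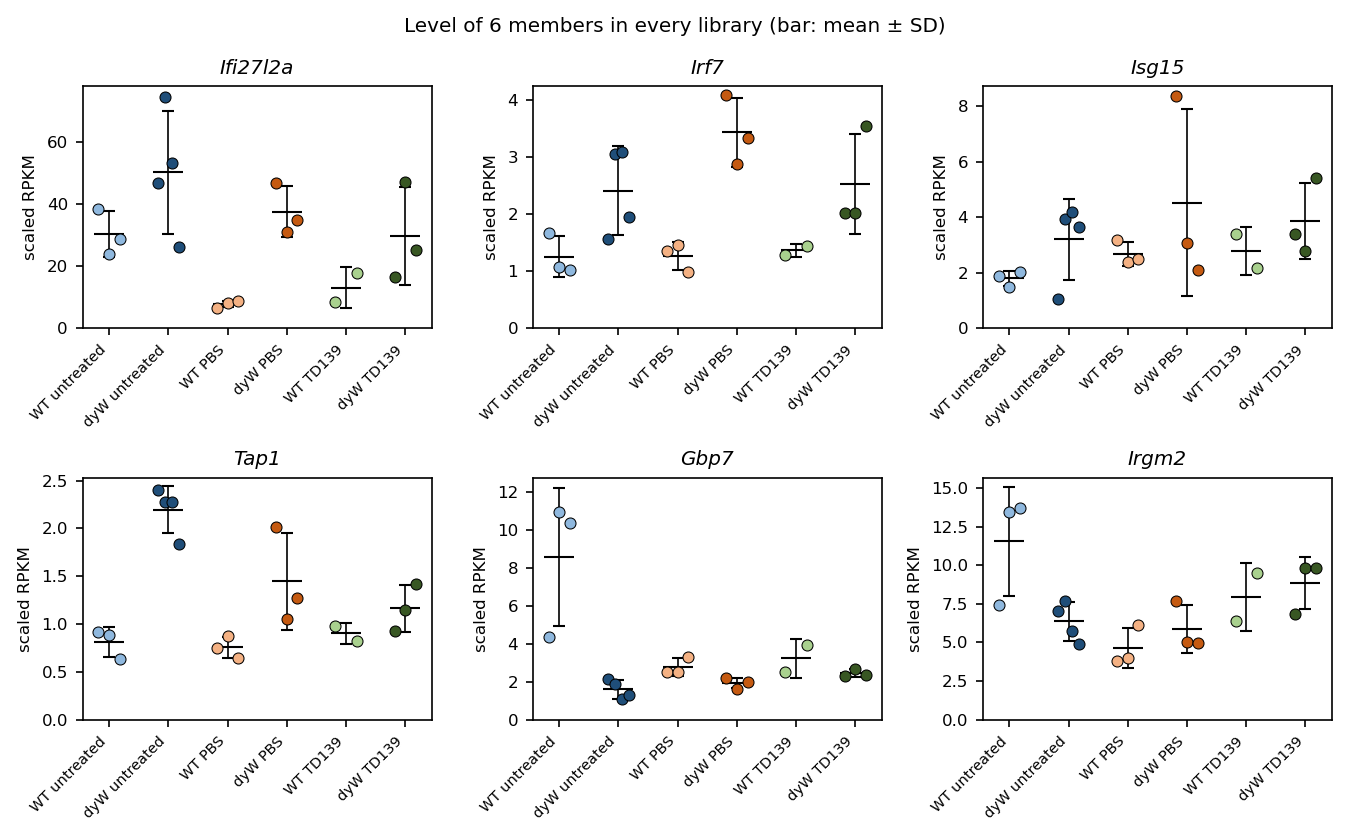
Scaled RPKM of Ifi27l2a, Irf7, Isg15, Tap1, Gbp7 and Irgm2, with 1 point per library and the mean ± SD of each group of 2 to 4 libraries. Ifi27l2a and Irf7 separate dyW PBS from WT PBS, Tap1 separates the untreated groups, and Gbp7 stands at 4.37 to 10.9 in untreated WT against 1.07 to 3.95 in the other 15 libraries.

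The treatment comparisons ask whether TD139 moved these genes in dyW or in WT muscle, and they share the PBS libraries with the genotype comparison above. In dyW TD139 against dyW PBS mice 0 of the 39 genes and 0% of all 15331 genes were called by edgeR. At an unadjusted p under 0.05, 1 of the 39 was higher and 0 lower, with 298 and 285 over all genes, and DESeq2 called 2 genes in each direction, none of them among the 39. The 5 genes with the smallest p were Irgm2 at 0.59 (SE 0.25), Irf7 at −0.44 (SE 0.25), Oas2 at −0.82 (SE 0.48), Gbp7 at 0.34 (SE 0.20) and Ifi35 at −0.34 (SE 0.21), all with an adjusted p of 0.888.

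In dyW TD139 libraries Irf7 lay at 2.02, 2.02 and 3.55 scaled RPKM, with replicates 1 and 2 below all dyW PBS libraries and replicate 3 within their range. Ifi27l2a lay at 16.6, 47.2 and 25.3, on both sides of the dyW PBS libraries. Ifi27 lay at 22.5, 36.7 and 24.8, Bst2 at 9.38, 15.5 and 18.8, and Ifi35 at 5.45, 5.31 and 7.20, each overlapping dyW PBS. Irgm2, at 6.87, 9.80 and 9.85, overlapped dyW PBS through replicate 1 of the latter alone, while Igtp, at 4.61, 5.68 and 8.31, overlapped all of its range. Gbp7, at 2.29, 2.68 and 2.38, and Gbp2 were the 2 genes with all dyW TD139 libraries above all dyW PBS libraries, with 7.18% of all genes in that state, and 0 of the 39 lay entirely below (7.08% of all genes).

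The direction of the whole set in this comparison depended on dyW PBS replicate 1. With it, 26 of 39 values were below 0 and the type I median was −0.21. Without it, 32 of 39 were above 0 and the type I median was 0.16, with the GTPase median at 0.26 and 7 of 7 above 0. None of the 39 was called in either case, and Irgm2 without that library stood at 0.83 (SE 0.26, adjusted p = 0.999). Macrophage genes were at 215 to 244 scaled RPKM in dyW TD139 mice.

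**Figure D5:**
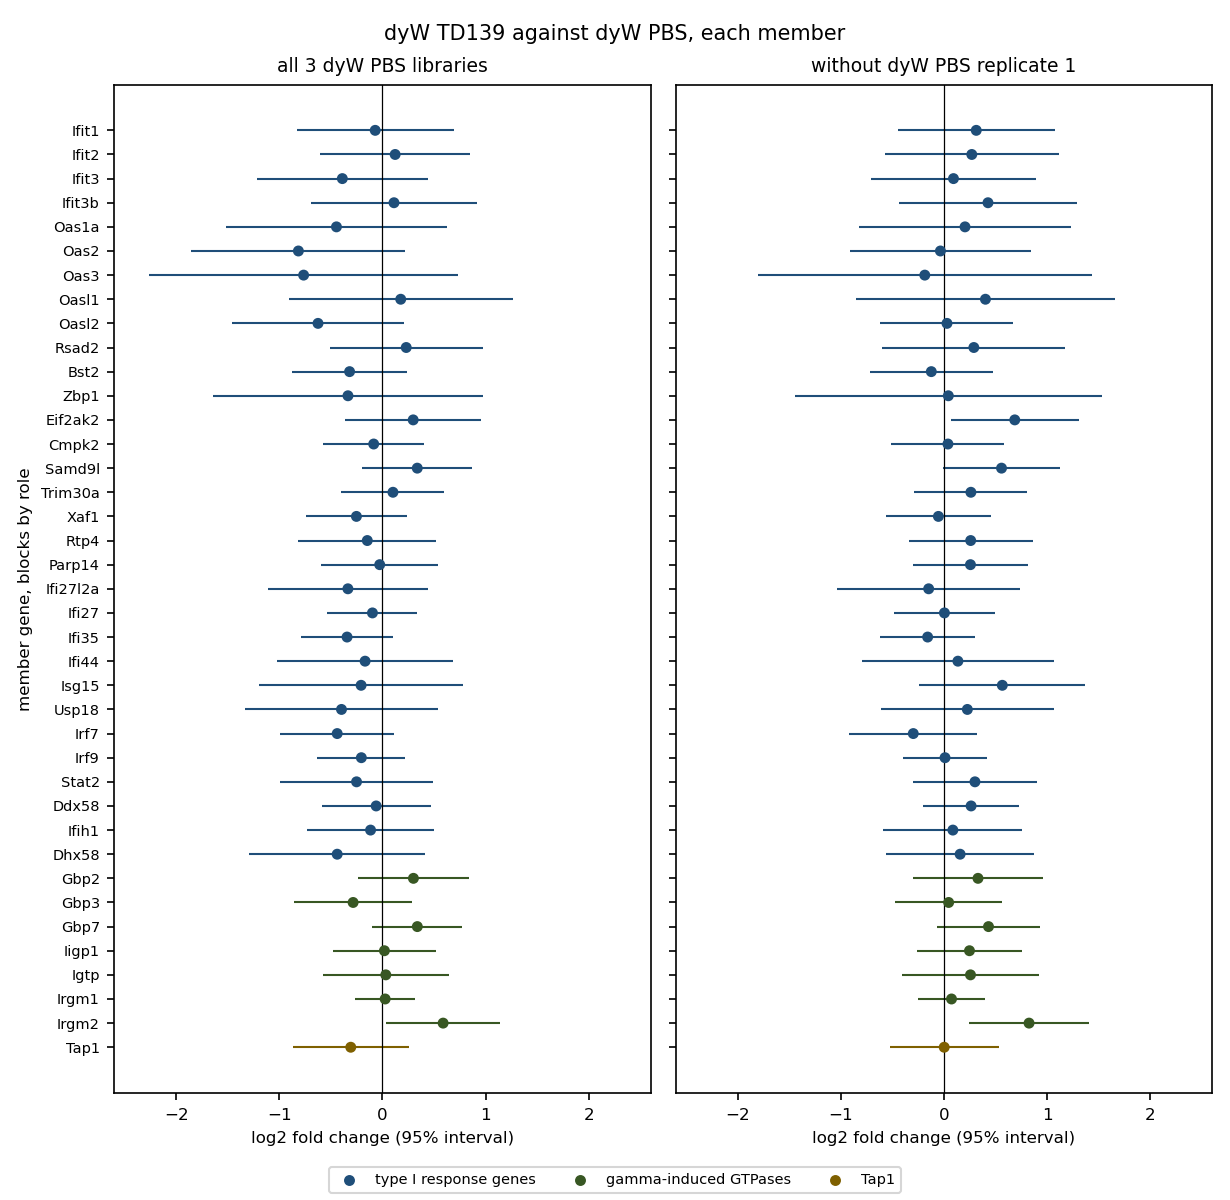
Log2 fold change of dyW TD139 over dyW PBS with its 95% interval for each of the 39 genes, with all 3 dyW PBS libraries (left) and without replicate 1 (right). Most type I values lie below 0 on the left (24 of 31) and above 0 on the right (24 of 31), and no gene passed the threshold in either panel.

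In WT mice given TD139 against PBS, 0 of the 39 genes and 0% of all genes were called. At an edgeR unadjusted p under 0.05, 1 of the 39 was higher and 0 lower, against 0.626% and 1.36% of all genes. The 5 genes with the smallest p were Irgm2 at 0.77 (SE 0.28), Ifi27l2a at 0.76 (SE 0.41), Zbp1 at 1.35 (SE 0.74), Ifit1 at 0.63 (SE 0.40) and Oas3 at 0.98 (SE 0.85), all with an adjusted p of 1. Medians were 0.08 for the type I genes and 0.14 for the GTPases, and both changed sign without WT TD139 replicate 2 (−0.11 and −0.12); the type I median also lay below 0 without WT PBS replicate 2 or 3. Irgm2 and Oas3 were the 2 genes with both WT TD139 libraries above all WT PBS libraries (4.82% of all genes), and 0 lay entirely below (4.23%). The WT TD139 group has 2 libraries, which read 8.42 and 17.8 for Ifi27l2a, 1.28 and 1.45 for Irf7, 17.8 and 13.6 for Ifi27, 11.7 and 11.4 for Bst2 and 5.74 and 4.91 for Ifi35. For the GTPases they read 6.41 and 9.51 for Irgm2, 3.79 and 5.61 for Igtp and 2.5 and 3.95 for Gbp7.

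Between genotypes under TD139, 0 of the 39 genes passed, with 0.757% of all genes called higher and 0.287% lower, and 6 of the 39 were higher at an unadjusted p under 0.05 (8.96% of all genes). DESeq2 and both limma fits each called 1 of the 39 higher, against 3.1%, 3.39% and 1.79% of all genes. The fitted value was above 0 for 37 of 39 genes, with a median of 0.47 for the type I genes and 0.40 for the GTPases. These were 0.26 and 0.29 without WT TD139 replicate 1, 0.29 and 0.20 without dyW TD139 replicate 3, and 0.72 and 0.59 without WT TD139 replicate 2. Macrophage genes, at 76.8 to 123 scaled RPKM in the WT libraries against 215 to 244 in the dyW libraries, moved with this comparison, with 3 of 13 called higher, and their part was not tested. The smallest p belonged to Ifi27 at 0.84 (SE 0.23, adjusted p = 0.110), Gbp2 at 0.86 (SE 0.28, adjusted p = 0.167), Irf7 at 0.89 (SE 0.29, adjusted p = 0.167), Ifi27l2a at 1.18 (SE 0.42, adjusted p = 0.197) and Iigp1 at 0.68 (SE 0.26, adjusted p = 0.234). In 14 genes all 3 dyW TD139 libraries lay above both WT TD139 libraries, a state that held for 20% of all genes.

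Whether the TD139 effect differed between genotypes was tested as an interaction. None of the 39 genes and 0% of all genes were called by edgeR, and DESeq2 called 1 gene. None of the 39 had an edgeR unadjusted p under 0.05, against 1.04% of all genes higher and 0.874% lower. The smallest p belonged to Ifi27l2a at −1.09 (SE 0.54), Zbp1 at −1.69, Oas2 at −1.17, Gbp2 at 0.59 and Oas3 at −1.74. These values share the dyW PBS libraries, and the type I median of −0.26 was 0.14 without dyW PBS replicate 1.

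The last comparison asks whether the genotype effect differed between the cohorts, each measured against its own WT mice. Gbp7 was the 1 gene of the 39 called, at 1.90 (SE 0.42, adjusted p = 0.0391) for the PBS effect minus the untreated effect, with 1.2% of 15771 genes called higher and 0.526% lower. Without dyW PBS replicate 1 it stood at 1.81 (adjusted p = 0.0427). The call was lost in 11 of 20 alternatives, namely both limma fits and those without untreated WT replicate 2 or 3, untreated dyW replicate 2, 3 or 4, WT PBS replicate 1 or 2, or dyW PBS replicate 2 or 3. Over the 20 its value ranged from 1.23 to 2.22 and its adjusted p from 0.00243 to 0.106. Group means of Gbp7 were 8.57 ± 3.65 scaled RPKM (SD, n = 3) in untreated WT, 1.60 ± 0.503 (n = 4) in untreated dyW, 2.77 ± 0.481 (n = 3) in WT PBS and 1.94 ± 0.281 (n = 3) in dyW PBS, so the WT groups were farther apart than the dyW groups. They were 3.23 ± 1.02 (n = 2) in WT TD139 and 2.45 ± 0.201 (n = 3) in dyW TD139.

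Over all 7 GTPases, Gbp7 among them, the difference was above 0 for 6, with a median of 1.03, and Gbp2 lay below 0 at −0.22. An unadjusted p under 0.05 was found for 5 of 7 (13.0% of all genes higher at that p), but Irgm1 at 0.64 (SE 0.17, adjusted p = 0.0618), Irgm2 at 1.19 (SE 0.37, adjusted p = 0.0834) and Iigp1 at 1.26 (SE 0.40, adjusted p = 0.0895) missed the threshold. The type I median was 0.34, and 0.03 without dyW PBS replicate 1, where that of the GTPases was 0.80. Ifi27l2a stood at 1.55 (SE 0.52, adjusted p = 0.104).

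Markers of the cells that make interferon gamma were measured beside the GTPases. The summed level of 9 NK cell genes was 0.327, 3.58 and 2.59 scaled RPKM in untreated WT replicates 1, 2 and 3, and that of 9 T cell genes was 0.484, 2.15 and 2.83. The GTPase median was lowest in replicate 1 as well, where 5 of the 7 genes were at their lowest and 2 at their highest of the group. In WT PBS the NK genes were at 0.0247 to 0.0991, with 2 of 9 at 0 in every library, and the T cell genes at 0.377 to 0.835. In untreated dyW mice, where Gbp7 was at 1.07 to 2.16, both lists had their highest group means. The NK genes were at 2.07 to 4.67 and the T cell genes at 3.00 to 5.27. In dyW PBS they were at 0.652 to 1.03 and 1.13 to 2.16. These sums rest on few reads. In untreated WT the NK list drew 253 reads in all, with Gzmb at 1, 82 and 60 in replicates 1, 2 and 3. The part of these cells in the GTPase levels was not tested.

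Upstream of the 39 genes, the ligands were at or near 0. Ifnb1 had 0 reads in all 18 libraries, which allows up to 3 reads in each, and Ifng had 0 to 3 reads per library. The 21 ligand genes together had 0 to 8 reads per group. Of the 5 receptor genes tested in untreated mice, Il10rb (1.56) and Ifnar2 (1.24), a chain of the type I receptor, rose in dyW, and Ifngr2 (−0.66), a chain of the gamma receptor, fell. Over all genes in untreated mice 24.7% were called higher and 25.1% lower. None of the 5 receptor genes was called in the PBS groups.

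A list of 13 genes held kinases, STAT and IRF genes, and Nlrc5, Ciita and Batf2. Of these, 4 rose and 2 fell in untreated dyW mice. The share of higher genes was near the 24.7% of all genes and that of lower genes below the 25.1%. The 3 with the smallest p were the receptor-associated kinases Jak2 at −1.52 and Jak1 at −1.34 and the transcription factor Irf5 at 1.41. In the PBS groups Irf5 was the 1 gene called, at 1.41 (adjusted p = 0.0368), with 2.4% of all genes called higher. For the difference between the cohorts' genotype effects Jak2 was called at 1.19 (adjusted p = 0.0370) and Il10rb at −1.09 (adjusted p = 0.0406). Over all genes 1.2% were called higher and 0.526% lower there. No gene was called without untreated WT replicate 3, untreated dyW replicate 3 or dyW PBS replicate 2 or 3. Both calls were thus lost in those fits.

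Of 16 sensing genes 9 rose and 1 fell in untreated dyW mice, led by the adaptor Myd88 (1.21), Tmem173 (1.68), which encodes the DNA sensing adaptor STING, and Unc93b1 (1.85), which carries nucleic acid sensing Toll-like receptors to endosomes. Over all genes in untreated mice 24.7% were called higher and 25.1% lower. In the PBS groups 2 of the sensing genes rose, against 2.4% of all genes. They were Unc93b1 at 1.14 and Tlr7, a receptor of single-stranded RNA, at 1.72. Of 13 genes that damp the response 4 rose and 2 fell in untreated mice, against the same 24.7% and 25.1% of all genes. They were led by the phosphatases Ptpn6 (1.82) and Ptpn11 (−0.83) and by Pias1 (−0.69), and none of the 13 was called in the PBS groups.

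Further targets of the response were followed in lists of their own. Of 50 other type I targets tested 27 rose and 3 fell in untreated dyW mice, with a median of 0.74 and with Shisa5 (1.46), Mov10 (1.68) and Ifitm2 (1.24) leading. Of 27 other gamma targets 16 rose and 3 fell, with a median of 1.10 and with the immunoproteasome subunit Psmb8 (1.44), the peptide transporter Tap2 (1.44) and Ifi30 (1.93) leading. Over all genes in that comparison 24.7% were called higher and 25.1% lower, with a median of 0.03. In the PBS groups 4 of 49 other type I targets rose, among them Lgals3bp at 1.17, against 2.4% of all genes. There 7 of 27 other gamma targets rose, among them the class I genes H2-D1 (1.14), B2m (1.01) and H2-K1 (0.99). No gene of any of these lists was called in either TD139 effect or in its difference between genotypes. The counts of these lists include the libraries that stood apart and are not given without them. Many of these targets are also expressed in macrophages, whose markers moved with genotype in both cohorts, and the part of those cells was not tested.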

How the data were processed

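Whole quadriceps RNA was sequenced from 18 mice, 1 library each, as pairs of 58 bp reads after Illumina Stranded mRNA preparation, per the labels' protocols. The authors mapped reads to mm10, per the submitters' processing notes; the aligner, the counter and its strand setting are not given in the sources used here. Per the file headers, each deposited table gives total and unique exon reads (counts per gene), RPKM and TPM; TPM was not used. The authors' deposited comparison tables hold log2 fold changes with raw and FDR-adjusted p-values from a test that is not named. Of 48709 genes, 17044 carry no exon length, which left 31665.

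Samples were grouped by genotype, treatment and cohort labels. Total exon reads entered edgeR 4.0.16 under R 4.3.3 (TMM, filterByExpr with minimum count 10 and total 15, quasi-likelihood test, Benjamini-Hochberg adjustment over all genes, threshold 0.05). The untreated cohort (7 libraries) was fitted alone, the treatment cohort (11) as 4 groups and the cohort difference on all 18. Adjusted p-values are those of edgeR except where DESeq2 or limma is named. P-values measure the spread between these mice. Log2 CPM used a prior count of 2. The edgeR step alone was tested on simulated counts, with the same spread for every gene. A true log2 fold change of 1 was called in 57.89% of changed genes for untreated mice and 55.1% for PBS mice. For the cohort difference it was called in 12.12%. At a true log2 fold change of 2 these shares were 100%, 98% and 84.69%.

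The genes, pathway lists and marker lists were chosen with earlier results of these data known, so their counts and medians are descriptions. Full statistics are given for members past the threshold (up to 10 by smallest p, or the 5 smallest p where fewer than 5 passed). Values in every library are given for the 4 type I genes and 3 GTPases of highest mean level and for those past the threshold in the treatment cohort. Of each pathway list up to 3 passing genes of smallest p are named; Ifnb1 and Ifng are always given. An item withheld from this text is not reported here. Values of Isg15, Tap1 and Gbp2 in every library, Ifih1, the remaining GTPases and genes just past the threshold were added after seeing the values. Alternatives were DESeq2 1.42.0, RLE factors, no filter, limma 3.58.1 on log2(RPKM + 0.1) and log2(RPKM + 1), unique reads, the sex label as a term, and leaving out each library in turn. Group orders without the libraries that stood apart were added after seeing the data.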

Additional observations from a re-analysis of the deposited data

Results flagged for a closer look

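The genotype effect on Gbp7 differed between the cohorts by a test of the difference itself. It was −2.41 on the log2 scale in untreated mice and −0.52 in PBS mice, and the PBS effect minus the untreated effect was 1.90 (SE 0.42, edgeR adjusted p = 0.0391). The call was lost in 11 of 20 alternatives, both limma fits and 9 of 13 fits without 1 library, with an adjusted p of up to 0.106. Untreated WT libraries read 4.37, 10.9 and 10.4 scaled RPKM, and the other 15 libraries 1.07 to 3.95. The cohorts differ in age label and injection, which cannot be told apart, and the part of NK and T cell RNA was not tested.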

How the results depend on the processing

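No paired analysis was possible because each library came from its own animal and replicate numbers were given in accession order. Apart from leaving out libraries, 180 recomputed counts and class medians stayed within their limits and 20 did not, all with limma or DESeq2. In untreated mice limma on log2(RPKM + 0.1) and on log2(RPKM + 1) each called 23 genes higher and 1 lower (51.4% and 50.1% of all genes higher, 8.71% and 8.68% lower), with a type I median of 0.80 in the first and GTPase medians of 0.20 and 0.17; Eif2ak2, called lower by edgeR, was at 0.11 (adjusted p = 0.575) and 0.075 (adjusted p = 0.546). These fits put the median of all genes at 0.51 and 0.29, against 0.03 with edgeR. In PBS mice DESeq2 called 9 higher and limma (+ 0.1) 6, with a GTPase median of 0.64. Those fits called 4.47% and 6.07% of all genes higher. Between genotypes under TD139, DESeq2 and both limma fits called 1, with a GTPase median of 0.71 (+ 0.1). They called 3.1%, 3.39% and 1.79% of all genes higher. For the cohort difference DESeq2 called 3 and both limma fits 0. DESeq2 called 3.77% of all genes higher and 3.43% lower there. The limma fits called 0.184% and 0.273% higher and 0.292% and 0.431% lower. The GTPase medians were 0.67 (+ 0.1) and 0.56 (+ 1), and the type I median was 0.011 (+ 1). Over all genes DESeq2 called 685 higher and 179 lower in PBS mice, against 368 and 43 by edgeR. The cause of these shifts was not tested.

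Leaving out 1 library at a time gave 2 to 17 genes higher and 1 to 4 lower in untreated mice. Those fits called 18.5% to 26.9% of all genes higher and 19.5% to 25.5% lower. The type I median was 0.26 to 0.52 and the GTPase median −0.74 to −0.19. In PBS mice leaving out 1 library gave 1 to 2 higher and 0 lower, with medians of 0.30 to 0.82 and 0.31 to 0.51. There 0.738% to 3.05% of all genes were called higher and 0.0396% to 0.891% lower. No gene of the set was called in any such fit of the TD139 effect in dyW (type I median −0.40 to 0.16), its effect in WT (−0.11 to 0.21), the genotype effect under TD139 (0.26 to 0.72) or the interaction (type I median −0.48 to 0.14). The cohort difference had 0 to 3 higher, against 0% to 2.3% of all genes, with medians of 0.033 to 0.50 and 0.67 to 1.33.

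Depth limits Oas3 and Zbp1 most, which drew as few as 1 and 2 reads in a library. Groups of 2 to 4 mice limit every comparison; each comparison with WT TD139 has 2 libraries on 1 side.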

Other observations

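The other gamma targets can be divided by role, a division made after their values were seen and given without a test. In untreated dyW against WT mice all 11 genes of antigen processing and presentation (Psmb8, Psmb9, Psmb10, Tap2, Tapbp, Tapbpl, B2m, H2-K1, H2-D1, H2-T23 and Ifi30) were called higher, at log2 fold changes of 0.82 to 1.93, and Tap1, at 1.45, lay within that range. Of the 11 other GTPases tested (Gbp, Tgtp, Ifi47 and Gvin1 genes) 1 was called higher and 3 lower, with a median of −0.24; over all genes 24.7% were called higher and 25.1% lower, so the share lower is near that background. The 3 lower were Gbp9 (−0.61), Gvin1 (−1.0) and Tgtp1 (−1.14), and the 1 higher was Ifi47 (1.22). In the PBS groups 5 of the 11 antigen processing genes were called higher, with a median of 0.81, and 0 of 10 other GTPases, with a median of 0.27. Over all genes 2.4% were called higher there. In dyW TD139 against dyW PBS mice the 11 antigen processing genes had values of −0.53 to −0.08 and none was called. These values and the PBS counts include dyW PBS replicate 1. Without that library the type I median of the TD139 comparison changed sign. Values of the antigen processing genes without it are not given here, so a decrease with TD139 cannot be read from them.

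The chemokine Cxcl10, which draws T cells and NK cells, stood at 3.83 (SE 0.51, edgeR adjusted p = 0.000581) in untreated dyW against WT mice, and Cxcl9, of the same family, at 1.71 (adjusted p = 0.00782). In the PBS groups they stood at 2.34 (adjusted p = 0.167) and 2.31 (adjusted p = 0.0150). Both were chosen after their values were seen.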
